A study of Mus musculus with 32 samples.

Results

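Heavy polysome RNA of cells that overexpress the translation initiation factor eIF4E was compared with heavy polysome RNA of their parent line over both serum states. The comparison used every heavy fraction array of the series, chosen by label and not by value. These are 16 of 32 deposited columns, which make 8 of 16 samples. The cells were mouse NIH 3T3 fibroblasts and NIH 3T3/4E cells (4E below), a derivative in which eIF4E is expressed ectopically and which the series describes as resistant to apoptosis and tumorigenic. Each line was sampled in complete growth medium (basal) and after 16 h without serum (starved), which the labels call serum stressed, with 2 samples in each of the 4 groups. The heavy pool joined gradient fractions 7 to 10, whose transcripts carry more than 1 ribosome. All arrays shared 1 reference, unfractionated poly(A) RNA from fed NIH 3T3 cells. No promoter, clone number or level of the eIF4E transgene is given in the sources used here, so the number of independent 4E clones behind the samples is not known. Whether both samples of a group were grown as separate cultures is not stated. The spread that p-values are set against is therefore that between these samples, and it may be technical.

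eIF4E binds the cap at the start of messenger RNAs and, with the scaffold eIF4G and the helicase eIF4A, recruits the small ribosomal subunit. It is often the limiting member of that complex, its availability is held down by the 4E-binding proteins, and excess eIF4E is known to favour the translation of messages that otherwise initiate poorly, among them those of growth and survival proteins. A polysome gradient sorts messages by the number of ribosomes on them, so the heavy pool holds well translated messages. Its content also depends on how much of a message the cell has, and the 2 cannot be told apart within the heavy fraction alone.

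The array carried the NIH 15k mouse cDNA collection. The deposited table names clones only by an ID such as H3073H04, and 0 of the 15247 clone IDs matched the mouse gene table from RefSeq. Neither the eIF4E clone, nor fibroblast markers, nor any gene group could therefore be looked up. Each value is a log ratio of a sample against the common reference, taken as log2. The direction of the ratio is not given, so positive and negative are as coded in the deposited table: a positive 4E minus NIH 3T3 difference means a higher deposited value in 4E, which is not known to mean more RNA. A sample's value is the mean of its 2 deposited columns, centred on the sample's median. Correlations across clones were 0.53 to 0.68 between the samples of a group and 0.29 to 0.68 between samples of different groups. The values spread most in the 2nd starved 4E sample (median absolute deviation 0.739, against 0.529 to 0.597 in the other 7).

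The heavy samples fall into 2 sides by a feature of the files. The 2 control rows of the table held values for the basal NIH 3T3 and the starved 4E cells (4 samples), and none for the starved NIH 3T3 and the basal 4E cells (4 samples). A cell line comparison in 1 serum state crosses these sides, whereas the average over both serum states holds each side equally in each line. The clone IDs read as a plate number from 1 to 159, a row letter and a column number, which gives 96 wells on a full plate. When the mean of the 4 samples with control values was correlated with the mean of the other 4 across the wells of each plate, 150 of the 159 plates were best matched by their own number. The 8 plates 105 to 112 were not. Plate 105 on one side matched plate 109 on the other (r = 0.71, against 0.11 for the same number), 106 matched 110 (0.70), 107 matched 111 (0.68) and 108 matched 112 (0.24). The reverse matches held too, 109 with 105 (0.86), 110 with 106 (0.62), 111 with 107 (0.71) and 112 with 108 (0.78). The light samples, hybridised to other arrays, gave the same 8 exchanges at r of 0.60 to 0.86 and matched the other 151 plates to themselves. The 9th plate of the heavy samples, number 63, had near equal values for its own number (0.33) and for plate 150 (0.35), and matched itself in the light samples.

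**Figure D1:**
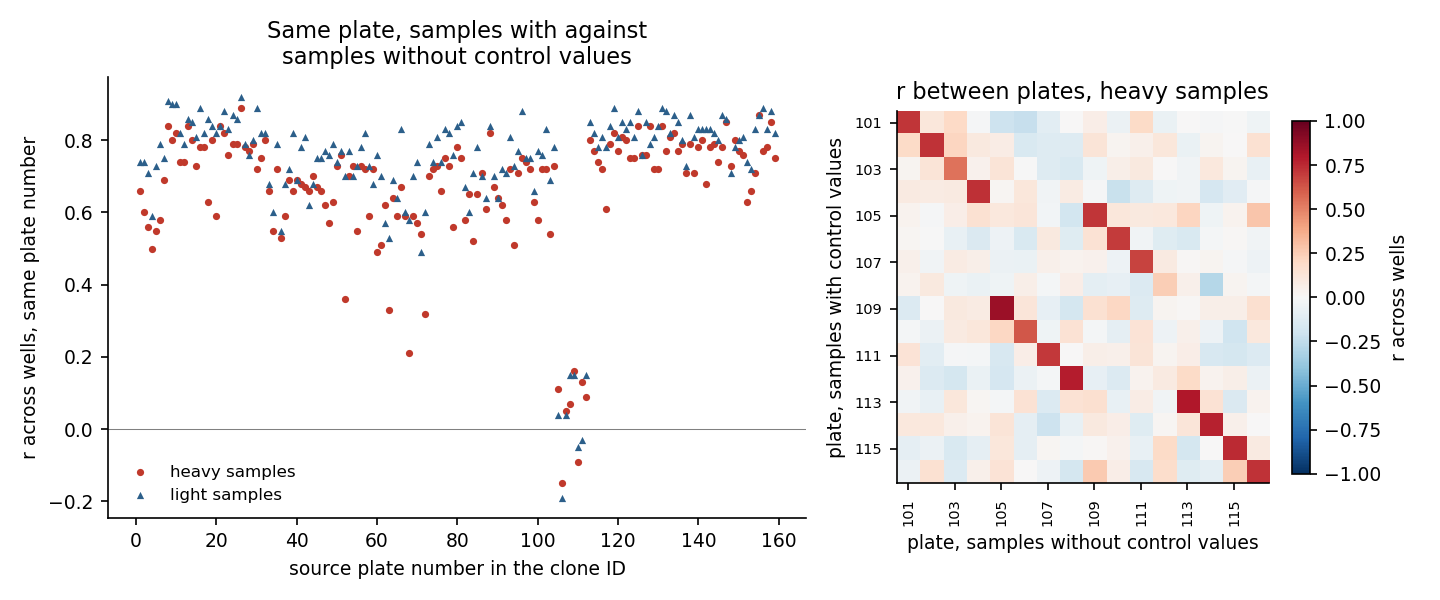
Match of source plates between samples with and without filled control rows. The left panel plots, for each plate number, the correlation across wells between the mean of the samples with and the mean of the samples without control values, for heavy (circles) and light (triangles) samples; plates 105 to 112 lie between -0.19 and 0.16. The right panel shows the same correlation between pairs of plates in the heavy samples, where the high values leave the diagonal for these 8 plates and stand 4 plates away, the palest for plate 108 (0.24).

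One well shows the exchange in single values. On plate 111, well E04 stood at 1.87 and 3.27 in 4E basal and at 4.55 and 3.35 in NIH 3T3 starved samples, but at -0.14 and -0.04 in 4E starved and at -0.05 and 0.16 in NIH 3T3 basal samples. On plate 107 the same well was the mirror of it, at -0.85 and 0.11 in 4E basal and 0.21 and 0.40 in NIH 3T3 starved samples, but at 3.73 and 2.35 in 4E starved and 2.69 and 1.79 in NIH 3T3 basal samples. The high values went with the side and not with the line or with serum. Over all clones of the 8 plates, samples of different sides correlated at r of -0.03 to 0.08 and samples of 1 side at 0.27 to 0.68. On the other plates the ranges were 0.30 to 0.55 and 0.33 to 0.69 (samples of 1 side). These plates held 764 of the 15203 clones tested (5.03%). For them, an ID does not stand for the same well on both sides, and which side carries the intended ID is not known, so counts are given with and without these plates.

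Averaged over the serum states with equal weight, 23 of 15203 clones differed between 4E and NIH 3T3 in the heavy fraction at an adjusted p under 0.05 (0.151% of the clones tested; limma with serum state as a covariate, Benjamini-Hochberg over all clones). Of these, 9 had a positive (0.0592%) and 14 a negative difference (0.0921%). The called clones were few but far apart. Their sizes ran from 1.47 to 3.89 log2 units, beside a central 95% range of -0.81 to 0.80 over all clones. None of the 23 lay on plates 105 to 112. These plates hold 5.03% of the clones tested, so few calls would fall there at the same rate. As deposited, the average there joins different wells, and their contrast counts as spread in this fit, which works against a call. The same 23 were called when those plates were left out or matched by value. Neither step changes the values of the 23, so their staying called is given as a description. Matching could have added calls on these plates and added none. With quantile normalization the split turned to 9 positive and 7 negative.

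The largest positive difference belonged to clone H3073H04. It stood at 3.30 and 3.31 in 4E basal, at 3.32 and 3.91 in 4E starved, at -0.23 and -0.53 in NIH 3T3 basal and at -0.72 and -0.26 in NIH 3T3 starved samples. All 4 of the 4E samples lay above 3 and all 4 of the NIH 3T3 samples just below 0, whatever the serum state. The mean was 3.46 ± 0.30 in 4E and -0.43 ± 0.23 in NIH 3T3 (SD, n = 4 each), a difference of 3.89 (SE 0.26, limma adjusted p = 0.000292).

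Clone H3089A10 followed the same form. Its values were 2.37 and 2.80 in 4E basal, 2.90 and 4.08 in 4E starved, -0.49 and -0.78 in NIH 3T3 basal and -0.59 and -0.86 in NIH 3T3 starved samples. The lines did not overlap, and the spread was wider in 4E (3.04 ± 0.73) than in NIH 3T3 (-0.68 ± 0.17; SD, n = 4 each). The difference was 3.72 (SE 0.34, limma adjusted p = 0.00196).

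On the negative side clone H3143B04 came first. It stood at -1.05 and -0.83 in 4E basal, at -2.39 and -3.68 in 4E starved, at 1.68 and 0.81 in NIH 3T3 basal and at 1.61 and 2.28 in NIH 3T3 starved samples. The lines took opposite signs in every sample, and the 4E values were lowest in the starved cells. The means were -1.99 ± 1.32 in 4E and 1.59 ± 0.61 in NIH 3T3 (SD, n = 4 each), a difference of -3.58 (SE 0.55, limma adjusted p = 0.041). This call was lost in 9 of 23 alternatives.

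Clone H3078D03 had the next largest negative difference. It stood at -1.04 and -1.10 in 4E basal, at -0.13 and 0.79 in 4E starved, at 1.42 and 1.70 in NIH 3T3 basal and at 3.27 and 2.54 in NIH 3T3 starved samples. Within each line the starved samples were the higher ones, so the lines ran in parallel without overlap. The difference was -2.60 (SE 0.29, limma adjusted p = 0.00686).

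**Figure D2:**
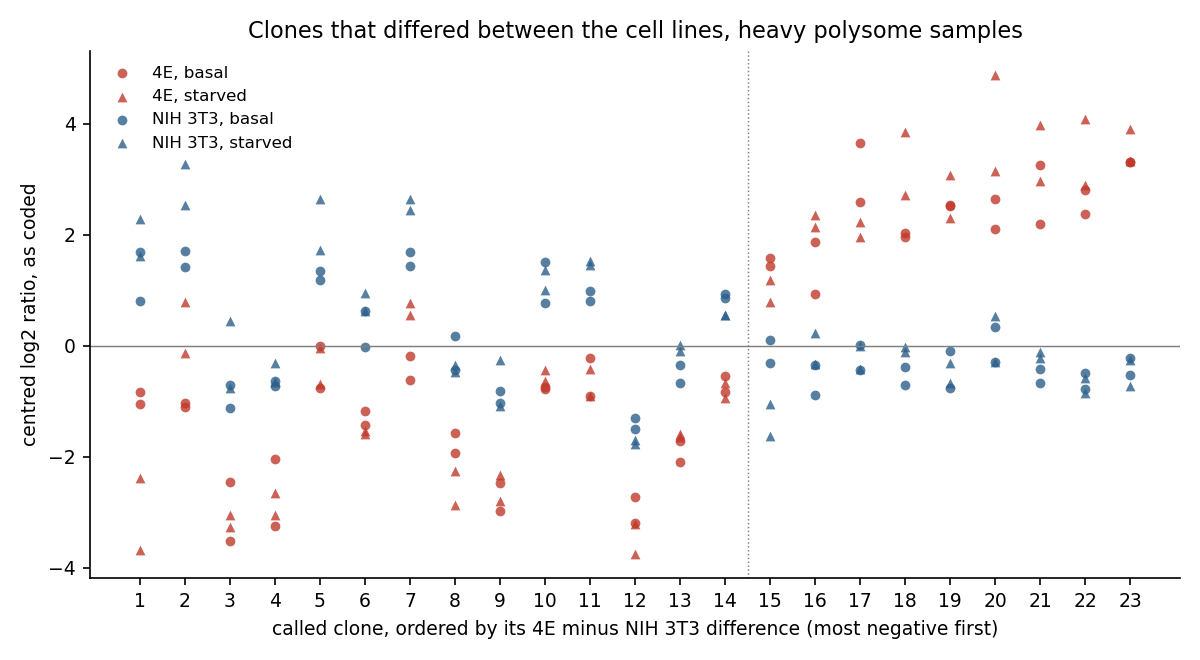
Centred log2 ratio, as coded, of the 23 called clones in the 8 heavy samples. Each column of points is 1 clone, red points are 4E and blue points NIH 3T3 samples, and circles are basal and triangles starved. No clone shows overlap of the lines; the 9 positive clones stand right of the dotted line.

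The means of the lines show where the called clones stood. In all 9 positive clones the NIH 3T3 mean lay within 1 unit of 0, from -0.72 to 0.07, and the 4E mean lay away from 0, from 1.24 to 3.20 in 8 of them and at 3.46 in clone H3073H04. Most clones of the array share the first feature: the NIH 3T3 mean lay within 1 unit of 0 in 90.3% of all clones tested and the 4E mean in 90%, so the 9 of 9 is near the background. In the 14 negative clones the NIH 3T3 mean ran from -1.57 to 2.23 and lay within 1 unit of 0 in 7, while the 4E mean ran from -3.22 to 0.13 and lay within 1 unit of 0 in 6. The positive and negative clones were not tested against each other. The median difference was 3.06 over the positive and -1.90 over the negative clones, against -0.0018 over all clones tested. The median SD of the 4 samples of a line was 0.73 (4E) and 0.31 (NIH 3T3) in the positive clones, and 0.42 and 0.37 in the negative ones. Calls were made from these differences, so their sizes are given as a description.

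The lack of overlap was common to all 23 called clones. They were chosen for a large difference beside the spread of the same 8 samples. That choice favours a lack of overlap, so it is given as a description. Over all clones tested, 661 (4.35%) had no overlap between the lines, 324 with 4E above (2.13%) and 337 with 4E below (2.22%). The 23 came from 22 source plates, at most 2 from 1 plate. The 2 deposited columns of a sample were equal in no heavy sample for 14 of the 23 (60.9%), against 31.9% of all clones, and in 1 sample for the other 9. Size alone did not make a call. Of the 20 clones with a difference over 2 units, 13 were called, and the other 7 had adjusted p of 0.0757 to 0.802. Of the 350 clones over 1 unit (2.3%), 327 were not called. The median 95% half-width of a difference was 0.667 units, without adjustment for the number of clones, so differences below that size were not detectable for the middle clone. After adjustment the called difference smallest in size was -1.47.

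The call of the average rests on all 8 samples. Leaving out 1 sample gave 6 to 12 clones in place of 23, so each of the 8 moves the count by over 1.5 times; the 6 were reached without the 2nd 4E starved, the 1st NIH 3T3 basal or the 1st NIH 3T3 starved sample. With the side as a block, which is a fit of all 4 group means, 29 clones passed (11 positive, 18 negative), the 23 among them. Within a side, cell line and serum change together. There, 22 clones passed where starved 4E was set against basal NIH 3T3 cells (0.145%; 0.118% positive, 0.0263% negative, 10.2% at an unadjusted p under 0.05). On the other side, basal 4E against starved NIH 3T3 cells, 8 passed (0.0526%; 0.0329% positive, 0.0197% negative, 8.38% unadjusted). The average is the mean of both within-side differences, so equal signs are favoured by the choice of clones and are given as a description. All 23 called clones had the sign of their average on both sides, at sizes of at least 0.90 with and 1.22 without control values. For clone H3073H04 the within-side differences were 3.99 and 3.80, for H3089A10 they were 4.12 and 3.31, for H3143B04 -4.28 and -2.89, and for H3078D03 -1.23 and -3.98.

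The same comparison was made within 1 serum state, in fed and in starved cells. In each state the 2 lines lie on different sides of the control rows. Cell line and side therefore cannot be told apart in these differences. In basal heavy samples 14 clones passed (0.0921%; 8 positive, 0.0526%, and 6 negative, 0.0395%) and in starved heavy samples 45 (0.296%; 28 positive, 0.184%, and 17 negative, 0.112%), in a fit of the 4 heavy group means. Without plates 105 to 112 the counts were 11 and 18, and with these plates matched by value 9 and 18. On the plates as deposited lay 2 of the 14 basal and 12 of the 45 starved calls. Of the clones called in the average, 5 were called in basal and 13 in starved samples. Of the 15203 clones tested, 6 were called in both serum states, 4 of them with the same sign. The order of the serum states is not settled by these counts, since array weights gave 52 basal and 20 starved clones.

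Among the basal calls, clone H3055A11 had the largest positive difference. Its values were 1.59 and 2.93 in 4E basal, 0.01 and 0.93 in 4E starved, -1.64 and -2.09 in NIH 3T3 basal and 0.78 and 0.80 in NIH 3T3 starved samples. The lines separated in basal cells and overlapped in starved cells. The basal difference was 4.13 (SE 0.49, limma adjusted p = 0.0269) and the starved one -0.33 (adjusted p = 0.815). The basal call was lost in 5 of 22 alternatives: with only the groups compared, and without the 2nd 4E basal, the 1st NIH 3T3 basal or either NIH 3T3 starved sample. Clone H3073H04 was second, with a basal difference of 3.68 (SE 0.36, limma adjusted p = 0.00894), which lost its call without the 2nd 4E basal sample.

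The most negative basal difference, of clone H3105C02, lies on an exchanged plate. Its values were -3.02 and -2.54 in 4E basal and -1.69 and -1.68 in NIH 3T3 starved samples, but -0.35 and -0.83 in 4E starved and 1.32 and 1.20 in NIH 3T3 basal samples. Both groups of 1 side were low. Its basal difference of -4.04 (SE 0.34, limma adjusted p = 0.00543) therefore sets 2 different wells against each other. The next, clone H3076B11, is on plate 76. It stood at 4.03 and 2.68 in NIH 3T3 basal samples and between -0.30 and 0.41 in the other 6, a single group apart from the rest. Its basal difference was -3.24 (SE 0.46, limma adjusted p = 0.0424) and lost its call in 11 of 22 alternatives, among them the exchanged plates matched by value.

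Among the starved calls, clone H3123F12 had the largest positive difference. Its values were -0.30 and -2.01 in 4E basal, 3.14 and 2.53 in 4E starved, 0.32 and -1.99 in NIH 3T3 basal and -2.01 and -1.28 in NIH 3T3 starved samples. The starved 4E samples stood above the other 6, while the 2 basal samples of each line lay far from each other. The starved difference was 4.48 (SE 0.74, limma adjusted p = 0.0494), and the call was lost in 9 of 23 alternatives. Clone H3089A10 was second, at 4.21 (SE 0.42, limma adjusted p = 0.00442).

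On the negative side of the starved samples, clone H3143B04 differed by -4.98 (SE 0.49, limma adjusted p = 0.00427). Clone H3009C04 differed by -4.14 (SE 0.39, limma adjusted p = 0.00396). Its values were -0.24 and -0.28 in 4E basal, -2.99 and -3.47 in 4E starved, -0.36 and 0.24 in NIH 3T3 basal and 1.26 and 0.56 in NIH 3T3 starved samples. Only the starved 4E samples left the range around 0 downwards. The basal difference was -0.20 (adjusted p = 0.901). The starved value of H3009C04 depends on the deposited column: the higher column of each pair gave -3.02 (limma adjusted p = 0.162, call lost) and the lower -5.27. Without the 1st NIH 3T3 starved sample, none of the 4 clones named for the starved comparison was called.

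The counts of single serum states turn on single samples. For the basal comparison they ran from 2 (without the 2nd 4E basal sample) to 53 (without the 2nd NIH 3T3 basal sample), and were 3 without either NIH 3T3 starved sample. For the starved comparison they ran from 0 (without the 1st NIH 3T3 starved sample; 1207 at an unadjusted p under 0.05 by limma) to 97 (without the 1st 4E starved sample), and were 24 without the 2nd 4E starved sample and 28 to 29 without a basal sample.

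Whether the cell line difference was itself unequal between the serum states was tested by the interaction. It passed at 100 clones (0.658%; 62 positive, 0.408%, and 38 negative, 0.25%, as the starved minus the basal 4E minus NIH 3T3 difference). In 99 of the 100 the basal and the starved differences had opposite signs, which the choice by the interaction favours. The share of all clones with opposite signs was not counted. None of the 100 was among the 23 called in the average, which are 0.151% of the clones tested. The fit of the average counts the interaction as spread, so a large interaction works against a call there. The SE of the average was 0.99 for clone H3152A09, against a median of 0.302 over all clones. The lack of shared clones is therefore given as a description. The interaction term coincides with the side of the control rows, so serum and side cannot be told apart. Of the 100 clones, 36 lay on plates 105 to 112, which hold 5.03% of the clones. The count was 32 without these plates, and 31 with them matched by value, then with no call on them. The share of clones with an interaction over 2 units was 16% on these plates as deposited, 2.62% after matching and 4.24% on the other plates (4.83% of all clones as deposited). Partner plates were picked by correlation between the sides, in these samples among others. That choice favours a smaller interaction after matching, so the fall is given as a description. In the average the share over 2 units was 0% on these plates as deposited, 0.131% after matching and 0.139% elsewhere. As deposited, the average on these plates joins 2 different wells.

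Of the 4 clones with the largest interaction, 3 are on exchanged plates: H3111G01 (6.07, SE 0.85, limma adjusted p = 0.0157), H3111E04 (-6.55, SE 0.73, adjusted p = 0.00528) and H3106B10 (-6.42, SE 0.79, adjusted p = 0.00904). The call was lost in 3 alternatives for H3111G01 and in 2 for H3106B10, each with 1 sample left out. The 4th, clone H3152A09, is not on these plates. It stood at -3.86 and -3.28 in 4E basal, -0.55 and 0.41 in 4E starved, -0.41 and -0.73 in NIH 3T3 basal and -3.79 and -2.27 in NIH 3T3 starved samples. Its low values followed the side in the same way as in the exchanged wells. The interaction was 5.96 (SE 0.75, limma adjusted p = 0.00904). Leaving out 1 sample gave 16 (without the 1st NIH 3T3 starved sample) to 129 clones, with 20 without the 2nd 4E basal and 41 without the 1st NIH 3T3 basal sample.

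Among the 23 called clones the serum states went together. All 23 had the same sign in basal and in starved samples, which the choice by the average favours. The starved difference was the larger in 8 of the 9 positive and in 10 of the 14 negative clones. Over all clones tested the starved differences also spread more widely (SD 0.668, against 0.617 for basal). They exceeded 1 unit in size at 1749 clones, against 1354 for basal, so the counts are not read as a trait of the called clones. The interaction was not called for any of the 23, which the choice by the average also favours. The largest interaction of the 23 in size was that of clone H3143B04 (-2.79, SE 0.69, limma adjusted p = 0.106). Over all clones, the cell line took 15.8% of the sum of squares in the heavy samples, serum 16.8%, and the cell line by serum term, with the side in it, 22.8%. These are 1.41, 1.51 and 2.05 times the mean square between the 2 samples of a group. The shares and multiples include the 764 clones of plates 105 to 112, whose exchange enters the cell line by serum term. They were not computed without these plates.

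**Figure D3:**
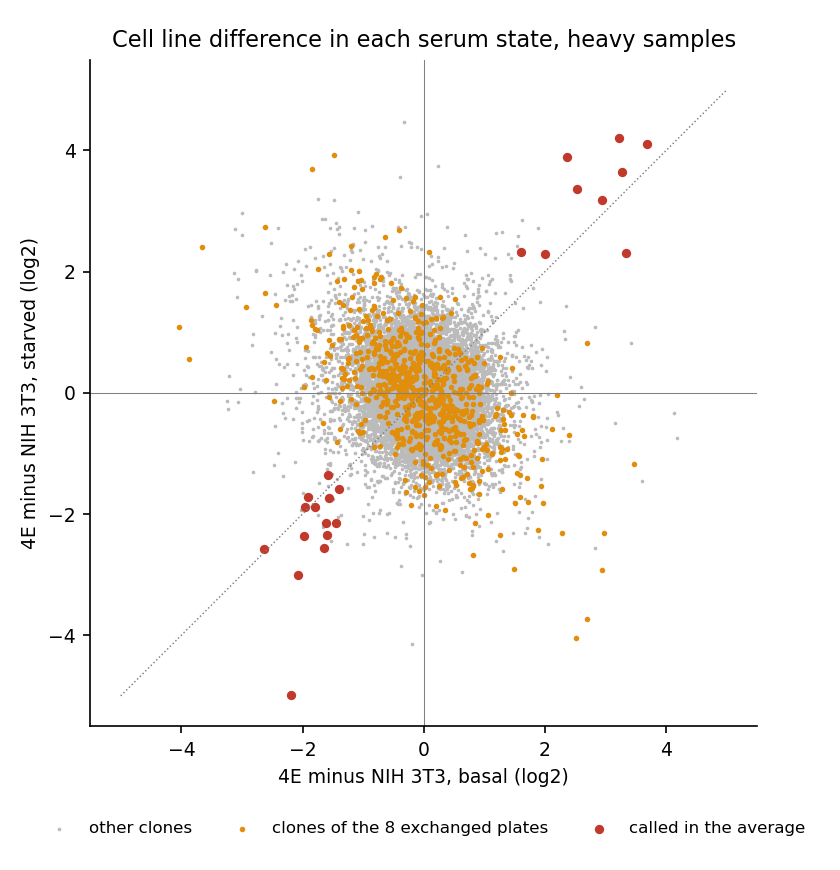
4E minus NIH 3T3 difference in heavy samples, in log2 units as coded, of each clone in basal cells (horizontal) and starved cells (vertical). Grey points are clones, orange points are the 764 clones of plates 105 to 112 and red points the 23 clones called in the average; all red points lie in the quadrants of equal sign, and the orange points spread mainly towards the quadrants of opposite sign. The dotted line marks equal differences.

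The light fraction (gradient fractions 4 to 6) gives the same contrast in 8 samples that the heavy fits did not use. They share the reference RNA with the heavy samples, and whether they came from the same gradients or cultures is not stated, so the fractions are not known to be independent. There, 35 of 15210 clones passed between 4E and NIH 3T3 (0.23%; 16 positive, 19 negative). All 23 clones called in the heavy samples had the same sign in the light samples, where 62.7% of all clones had equal signs. Of the 23, 22 had an unadjusted p under 0.05 in the light samples, against 7.42% of all clones, and 16 were called. These 16 are 69.6% of the heavy and 45.7% of the light calls. In the other direction, all 35 light calls had the same sign in the heavy samples, and 33 had an unadjusted p under 0.05 there, against 6.45% of all clones. Across 15169 clones the heavy and light differences correlated at r = 0.49. With 1 light sample left out, 3 to 13 clones passed, each of the 8 light samples moving the count by over 1.5 times.

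For clone H3073H04 the light samples stood at 3.08 and 3.24 in 4E basal, 3.16 and 3.12 in 4E starved, 0.51 and 0.75 in NIH 3T3 basal and 0.05 and 0.64 in NIH 3T3 starved cells. The 4E values were close to those of the heavy samples, and the NIH 3T3 values lay above 0 where the heavy ones lay below. The light difference was 2.66 (SE 0.23, limma adjusted p = 0.00188). For clone H3089A10 the light samples stood at 2.09 and 2.84 in 4E basal, 2.96 and 2.19 in 4E starved, 0.80 and 0.64 in NIH 3T3 basal and 0.63 and 0.30 in NIH 3T3 starved cells. The same upward step of NIH 3T3 was seen, and the light difference was 1.93 (SE 0.27, limma adjusted p = 0.024). Clone H3143B04 differed by -3.55 in the light samples (SE 0.50, limma adjusted p = 0.024) and clone H3078D03 by -1.84 (SE 0.24, limma adjusted p = 0.0209).

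Whether the cell line difference was larger in the heavy than in the light fraction was tested over all 16 samples. Heavy and light samples entered unpaired, and whether they pair was not checked. No clone passed by limma (388 at an unadjusted p under 0.05, 2.56% of 15169, lowest adjusted p 0.998). The 9 positive clones had a median heavy minus light difference of 1.39, and 6 of the 9 had an unadjusted p under 0.05, the lowest 0.000702 for clone H3089A10 (1.79, SE 0.42). The 14 negative clones had a median of -0.06, and 1 had an unadjusted p under 0.05. The light difference was smaller in size in 8 of the 9 positive and 8 of the 14 negative clones. These clones were chosen for a large heavy difference, which by itself makes the light one smaller on average. In the reverse choice, the heavy difference was the smaller one in 8 of the 16 positive and 13 of the 19 negative light calls. The median 95% half-width of this term was 0.841 units, without adjustment for the number of clones. Smaller shifts between fractions were not detectable for the middle clone, and larger ones were not called after adjustment.

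**Figure D4:**
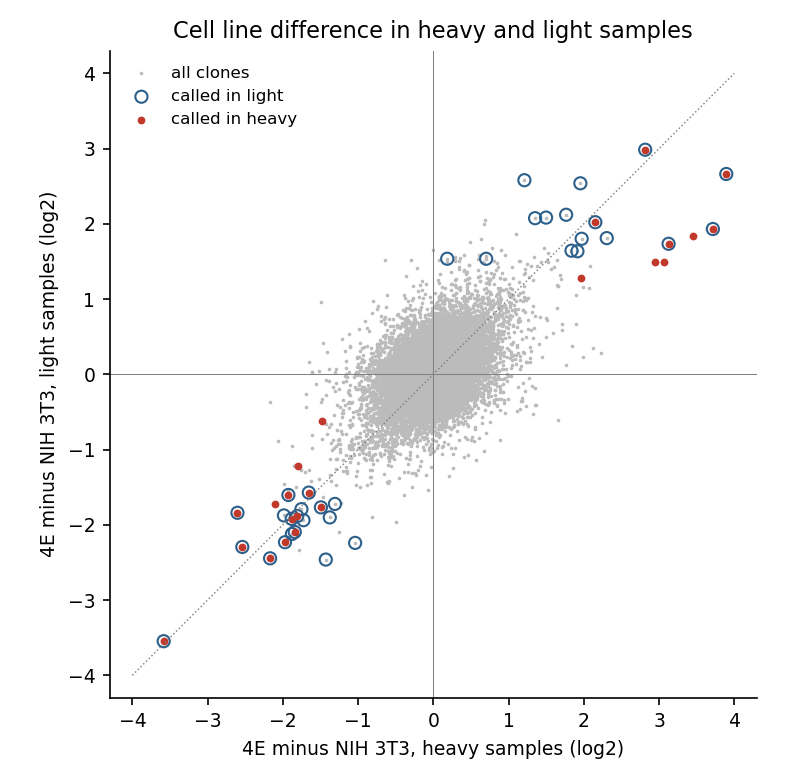
4E minus NIH 3T3 difference of each clone, averaged over the serum states, in heavy samples (horizontal) and light samples (vertical), in log2 units as coded. Red points are the 23 clones called in heavy samples and blue rings the 35 called in light samples; all of them lie in the quadrants of equal sign, and the positive red points fall below the dotted line of equal differences in 8 of 9 cases.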

How the data were processed

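The deposited table holds log ratios of each sample against a common reference, per the labels from 2-colour hybridisation, taken here as log2. For log base, direction, scanner, background correction and normalization the sources name nothing (not given in the sources used here). A natural log would scale each difference by 1 constant and change no test. The largest absolute value was 11.3, and no pair of columns correlated below 0 (lowest r 0.024). In every pair of title numbers 1 with 2 and 3 with 4, 1 column was never below the other (tolerance 1e-06), so each pair was averaged to 1 sample, as the rule of the comparison asks. Clones measured in all 8 heavy samples were kept (15203; 44 left out). Each sample was centred on its median (at most 0.0522).

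Differences were fitted with limma 3.58.1 (R 4.3.3), tested on simulated data: serum as covariate for the averages (5 residual degrees of freedom), group means for the others, adjusted p under 0.05. Title numbers did not pair the heavy samples of different groups (r of deviations between -0.305 and 0.234). Pairing of heavy with light samples was not checked. Named clones are the 2 largest positive and negative calls of each heavy comparison. Members, comparisons and lists were chosen with earlier results of these data known. Gene and marker lists could not be used, since clones have no gene names. The number of arrays limits the precision.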

Additional observations from a re-analysis of the deposited data

Results flagged for a closer look

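For clone H3073H04, the 2nd heavy sample of starved 4E cells (3.91) stood apart from the other 3 samples of its line, which lay at 3.30, 3.31 and 3.32. About 1 group in 20 would be marked so by chance. Without that sample the clone stayed called.

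The cell line difference in heavy samples was unequal between starved and basal cells at 100 clones, a term that coincides with the side of the control rows. The named clones among them were H3111G01 (6.07), H3152A09 (5.96), H3111E04 (-6.55), H3106B10 (-6.42), H3055A11 (-4.45), H3105C02 (5.13) and H3009C04 (-3.94). Of these 7, H3111G01, H3111E04, H3106B10 and H3105C02 carry IDs of the plates that are exchanged between the sides.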

How the results depend on the processing

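The heavy average gave 23 clones, and 16 to 29 under other column values, filters, scalings, group means or priors, 1179 with each column as a replicate, 77 with 8 group means over all 16 samples (the 23 included) and 6 to 12 with 1 sample left out. All 23 called clones kept their sign in every alternative that tested them (22 or 23 for each clone), and 6 stayed called in all. The alternatives reuse the same samples, so kept signs are given as a description. With the replicate block, which pairs samples by title number, the heavy average gave 8. With that block the basal comparison gave 6, starved 28, cell line by serum 69, the light average 10 and cell line by fraction 0. In the order basal, starved and cell line by serum, single columns gave 2738, 3458 and 3720 clones, 8 group means 68, 182 and 263, exchanged plates matched by value 9, 18 and 31, and 1 sample left out 2 to 53, 0 to 97 and 16 to 129. Only the groups compared gave 2 (basal) and 9 (starved), quantile normalization 53 (basal), median absolute deviation scaling 19 (starved), array weights 52 (basal) and 20 (starved), no exchanged plates 18 (starved) and 32 (cell line by serum), and unequal columns in all samples 50 (cell line by serum). The light average gave 1320 with single columns, 93 with 8 group means, 22 with a prior trend and 3 to 13 with 1 sample left out. Cell line by fraction gave 245 with single columns and 0 to 3 with 1 sample left out. Single columns count each sample as 2; the cause of the other changes was not tested. For the named clones, 304 of 348 values kept direction and call, 44 lost the call and 0 reversed. The exchanged plates were left out or matched after the data were seen. Signal over background is not used here.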
